A study of Homo sapiens with 2 samples.

Results

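The 9 genes described here encode scaffolds and catenin partners of adherens and tight junctions: CTNNA1, CTNND1, AFDN, VCL, LIMA1, TJP1, PTPN14, IQGAP1 and LMO7. They were chosen by symbol for what their proteins do, from the 1658 gene symbols with a peak in RNA recovered by a catenin immunoprecipitation (IP). All 9 had a peak, and this and earlier results of these data were known when they were chosen. Their presence is therefore not a result, and comparisons of the 9 with all genes only describe them. A gene usually appears once for each of its annotated transcripts, and each gene is represented by the listed transcript with the most tags summed over its peaks. This left 20 of the 2440 peaks over all genes. A tag is a sequenced read position counted inside a peak, and the fold is the enrichment that the authors' peak caller gave to that peak.

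Both samples of the series came from MDA-MB-231 cells, a long-established triple-negative breast cancer line of mesenchymal character. There was 1 IP library, whose title writes B-catenin, and 1 input library. Neither carries a treatment, time point or genetic change in its labels, and they do not name the antibody. The RNA was sheared to about 300 to 500 bp per the labels' protocols, and the stated purpose was to find long noncoding RNAs bound to catenin. The peak list belongs to the IP, the input was not analysed on its own here, and the total depth of the IP is unknown. With 1 library there is no replicate error, no test between conditions and no p-value, and every interval below is an exact 95% interval for counting error only. In bulk RNA, fewer cells with a transcript and less of it per cell cannot be told apart.

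At the adherens junction a cadherin spans the membrane and its cytoplasmic tail binds beta-catenin and p120 catenin. Alpha-catenin connects beta-catenin to actin and recruits vinculin, afadin and EPLIN, while the tight junction scaffold ZO-1 ties claudins and occludin to actin and also binds alpha-catenin and afadin. These are contacts between proteins, whereas the values below count fragments of the mRNAs that encode them. Of the markers used to check the cell line, FN1, EGFR and ZEB1 had a peak among 7 mesenchymal and basal genes. ZEB1 held only 17 tags at a fold of 6.37, and VIM, CD44, AXL and CAV1 had no peak. None of the 7 luminal epithelial genes had one. CDH1, which encodes the E-cadherin that beta-catenin binds in epithelia, was among those without a peak. Only RNAs above the authors' threshold are in the list, so a missing gene was not shown to be absent from the cells.

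Together the 9 mRNAs held 1525 tags, with an exact Poisson interval of 1449 to 1604. This was 1.14% of the 133739 tags in the 2440 peaks. Every one of them held more tags than the median gene, at 45 to 436 against a median of 41. Since earlier results were known when the 9 were chosen, this and the comparisons below only describe them. Their median tags were 130, and their median length of RNA under peaks was 2998 nt against 1294.5 nt over all genes. Per kb of peak the difference was smaller, with a median of 37.7 tags per kb for the 9 and 29.8 for all genes, and 6 of the 9 lay above the latter. The highest fold of a gene had a median of 12.73 in the 9 and 7.56 over all genes. In 5 of the 9 (TJP1, PTPN14, LMO7, IQGAP1 and AFDN) it was at least 10, as it was in 30.3% of the 1658 genes. VCL passed this fold as well, at 10.99, on its other listed transcript.

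**Figure D1:**
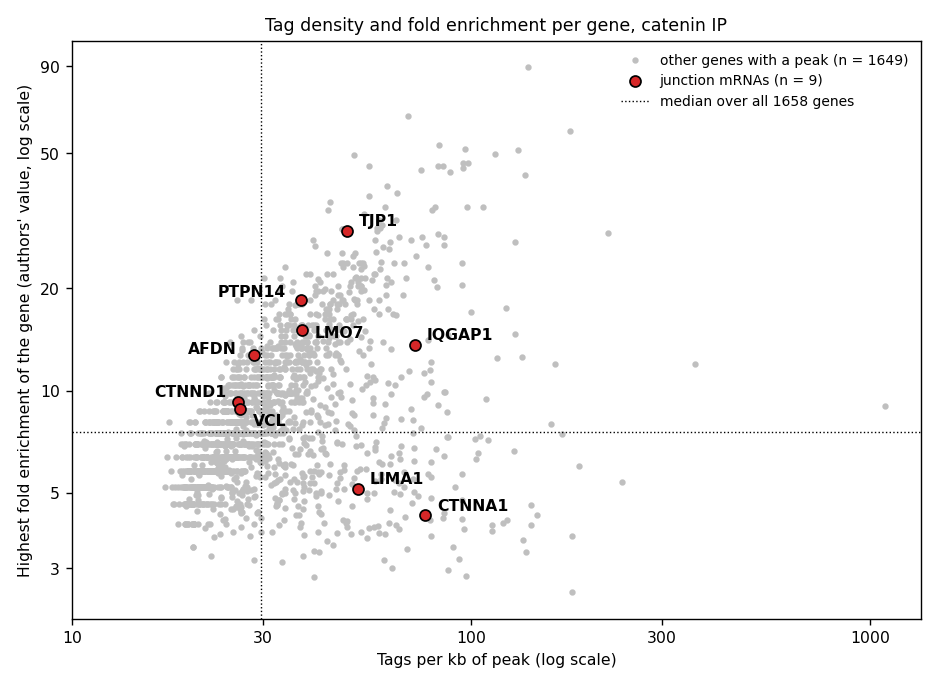
Tags per kb of peak (x axis, log scale) against the highest fold enrichment of a gene (y axis, authors' value, log scale) for all 1658 genes in the 1 IP library; red points are the 9 junction mRNAs and dotted lines the medians over all genes. CTNNA1 and LIMA1 lie to the lower right, with 76.7 and 52.0 tags per kb and folds of 4.29 and 5.13, whereas TJP1 has 48.8 tags per kb and a fold of 29.52.

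The members divided by their number of peaks. CTNNA1, LIMA1 and IQGAP1 each had a single peak, of 2335, 2500 and 6043 nt, and the other 6 had 2 to 5 peaks. Length did not separate these groups, since the longest peaks of TJP1 and PTPN14 had 2885 and 2255 nt. A single peak was the usual case, found in 68.5% of all genes, but the median gene's longest peak was 1050.5 nt. At least 3 peaks were present in TJP1, AFDN and VCL, 3 of the 9, and in 9.95% of all genes. Among the 6 members with several peaks, on the transcripts used, the first peak by deposited position had the highest fold in 2, the last in 3 and the fourth in AFDN. On 5 of the 8 listed AFDN transcripts it was the first peak instead. In LMO7, where it was the first, the second peak was higher on ENST00000526202, at 13.18 against 12.73.

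**Figure D2:**
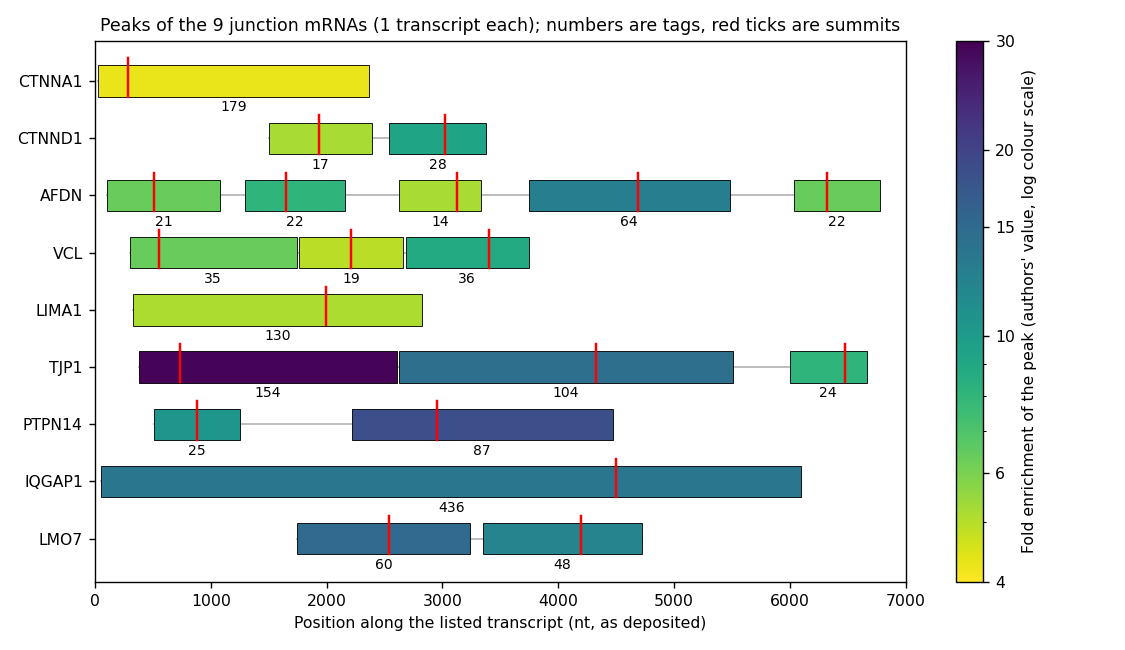
Peaks of the 9 mRNAs along the transcript used for each (x axis, nt as deposited); boxes are peaks coloured by fold enrichment (authors' value), red ticks are summits and the numbers below are tags. The single peaks of CTNNA1, LIMA1 and IQGAP1 hold 179, 130 and 436 tags, while the darkest box is the first peak of TJP1 with a fold of 29.52.

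Of the catenins, CTNNA1 encodes alpha-catenin, the actin-binding partner of beta-catenin. Its peak ran from nt 27 to 2361 of ENST00000627109 with 179 tags (154 to 207) and a summit near its start, at nt 282. At 76.7 tags per kb (65.8 to 88.7) it was the densest of the 9 and ranked 90 of 1658, yet its fold of 4.29 was the lowest of the 9 and ranked 1573. High density and low fold thus went together in CTNNA1.

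CTNND1 encodes p120 catenin, which binds the cadherin tail beside the membrane and keeps cadherin at the surface. It was the weakest of the 9 by tags, with 45 (32.8 to 60.2) at 26.0 tags per kb. Its first peak, at nt 1499 to 2394 of ENST00000358694, held 17 tags at a fold of 5.21. The second, at nt 2542 to 3374, held 28 tags at 9.26, which was 62.2% of the gene's tags (exact binomial interval 46.5 to 76.2%). The densities of the peaks were 19.0 (11.1 to 30.4) and 33.6 (22.3 to 48.6) tags per kb, and their intervals overlap.

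Among the proteins that connect the complex to actin, AFDN encodes afadin, which joins nectins to the cytoskeleton. It had 5 peaks, and only 9 genes in the whole list had more. They covered 75.2% of the stretch from nt 103 to 6780 of ENST00000392112 and held 143 tags (121 to 168). The fourth peak, at nt 3749 to 5479, held 64 tags at a fold of 12.73, or 44.8% of the tags (36.4 to 53.3%). The other 4 peaks held 14 to 22 tags each, at folds of 5.21 to 8.10 and 19.9 to 29.6 tags per kb. The fourth peak had 37.0 tags per kb (28.5 to 47.2), an interval that overlaps those of the others.

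VCL encodes vinculin, which binds alpha-catenin and actin when the junction is under tension. Its 3 peaks nearly joined, with 18 and 19 nt between them, and covered 98.9% of nt 299 to 3744 of ENST00000372755. They held 35, 19 and 36 tags at folds of 6.37, 4.94 and 8.85. The density was 24.3, 21.0 and 33.9 tags per kb, and the interval of the densest (23.7 to 46.9) overlapped those of the others (16.9 to 33.7 and 12.7 to 32.9).

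LIMA1 encodes EPLIN, an actin-binding LIM protein that attaches to alpha-catenin. Its single peak at nt 325 to 2824 of ENST00000341247 held 130 tags (109 to 154) at 52.0 tags per kb (43.4 to 61.7). The fold was 5.13, rank 1448 of 1658, and the summit lay at nt 1996. As in CTNNA1, the density was above the median over genes and the fold below it.

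TJP1 encodes ZO-1, the scaffold below the claudin strands of tight junctions. It held 282 tags (250 to 317) in 3 peaks at nt 379 to 6663 of ENST00000346128. In the order of their positions the peaks held 154, 104 and 24 tags at folds of 29.52, 14.47 and 8.10, with summits at nt 733, 4327 and 6476. The first and second peak, at nt 379 to 2610 and 2621 to 5505, nearly joined, with 10 nt between them on all 4 transcripts with both. Whether they are separate sites was not tested. The first peak alone held 54.6% of the tags (48.6 to 60.5%). Its density was 69.0 tags per kb (58.5 to 80.8) against 36.0 in the second (29.5 to 43.7), and these intervals do not overlap. They take each tag as independent, although duplicate reads could not be separated. The third had 36.1 tags per kb (23.1 to 53.7), an interval that holds the value of the second. By fold TJP1 ranked 36 of 1658.

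Of the regulators, PTPN14 encodes a cytoplasmic tyrosine phosphatase that also restrains the growth coactivator YAP. Its peaks lay at nt 509 to 1251 and 2216 to 4470 of ENST00000366956, with 964 nt between them. They held 25 and 87 tags at folds of 10.42 and 18.52, so that 77.7% of the tags (68.8 to 85.0%) lay in the second. Per kb the peaks had 33.6 (21.8 to 49.7) and 38.6 tags (30.9 to 47.6), with overlapping intervals, and the second was the longer.

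IQGAP1 encodes a scaffold that binds actin, calmodulin, RAC1, CDC42 and beta-catenin. It held the most tags of the 9, 436 (396 to 479), in 1 peak from nt 54 to 6096 of ENST00000268182, its only listed transcript. Its label names both untranslated regions, and it ranked 17 by length when each gene's longest peak was ranked. Its summit lay toward the far end, at nt 4498. The density of 72.1 tags per kb (65.5 to 79.3) overlapped that of CTNNA1, but the fold was 13.63 against 4.29.

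LMO7 encodes a LIM-domain protein that binds afadin and alpha-actinin. Its 2 peaks lay at nt 1746 to 3233 and 3350 to 4724 of ENST00000341547 and held 60 and 48 tags. Their folds of 15.05 and 12.08 and their densities of 40.3 (30.8 to 51.9) and 34.9 (25.7 to 46.3) tags per kb lay close together.

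Fold and tag density therefore ordered the members differently. The density of the highest peak divided by its fold gives the tags per kb that went with each unit of fold; it depends on the shape of the peak as well as on the authors' unstated background. It was 17.9 in CTNNA1, 10.1 in LIMA1 and 5.29 in IQGAP1, against a median of 3.66 over all genes (quartiles 3.02 and 4.68). In the 6 members with several peaks it ran from 2.08 in PTPN14 to 3.83 in VCL. CTNNA1 ranked 34, LIMA1 102 and PTPN14 1631 of 1658. The folds themselves were partly stepped: in 70.1% of all 2440 peaks they were whole multiples of 0.5788 to within 0.0051. All peaks of TJP1, AFDN, PTPN14 and CTNND1 were on such multiples, 4 of the 9 genes against 60.9% of all genes. None of the single peaks of CTNNA1, LIMA1 and IQGAP1 was, nor were the second peak of LMO7 and the last 2 peaks of VCL. The fold of the first TJP1 peak was 51.0 steps, and the fold of the second PTPN14 peak 32.0. Nothing in the file or labels says how the authors' caller set its background, and whether stepped and other folds are on the same footing was not tested.

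The 9 genes were listed on 65 transcripts with 136 peak entries, most of which repeat the same tags at shifted positions. CTNND1, whose mRNA is known to be alternatively spliced at several exons, had the most, with 59 entries on 30 transcripts, but these came to only 4 distinct peaks when compared by length, summit, tags and fold. A first peak of 896 nt with 17 tags was identical in all 30, beginning anywhere from nt 330 to 1572. The second peak took 3 forms. It had 833 nt and 28 tags in 16 transcripts, 730 nt and 26 tags in 9, and 682 nt and 19 tags in 4, where its fold was 7.52 in place of 9.26. The remaining transcript had no other peak. The space between the first and second peak was 147 nt in 20 transcripts and 165 nt in 9, a difference of 18 nt between transcript models. The first peak was the same in every model, so its tags do not tell the models apart.

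**Figure D3:**
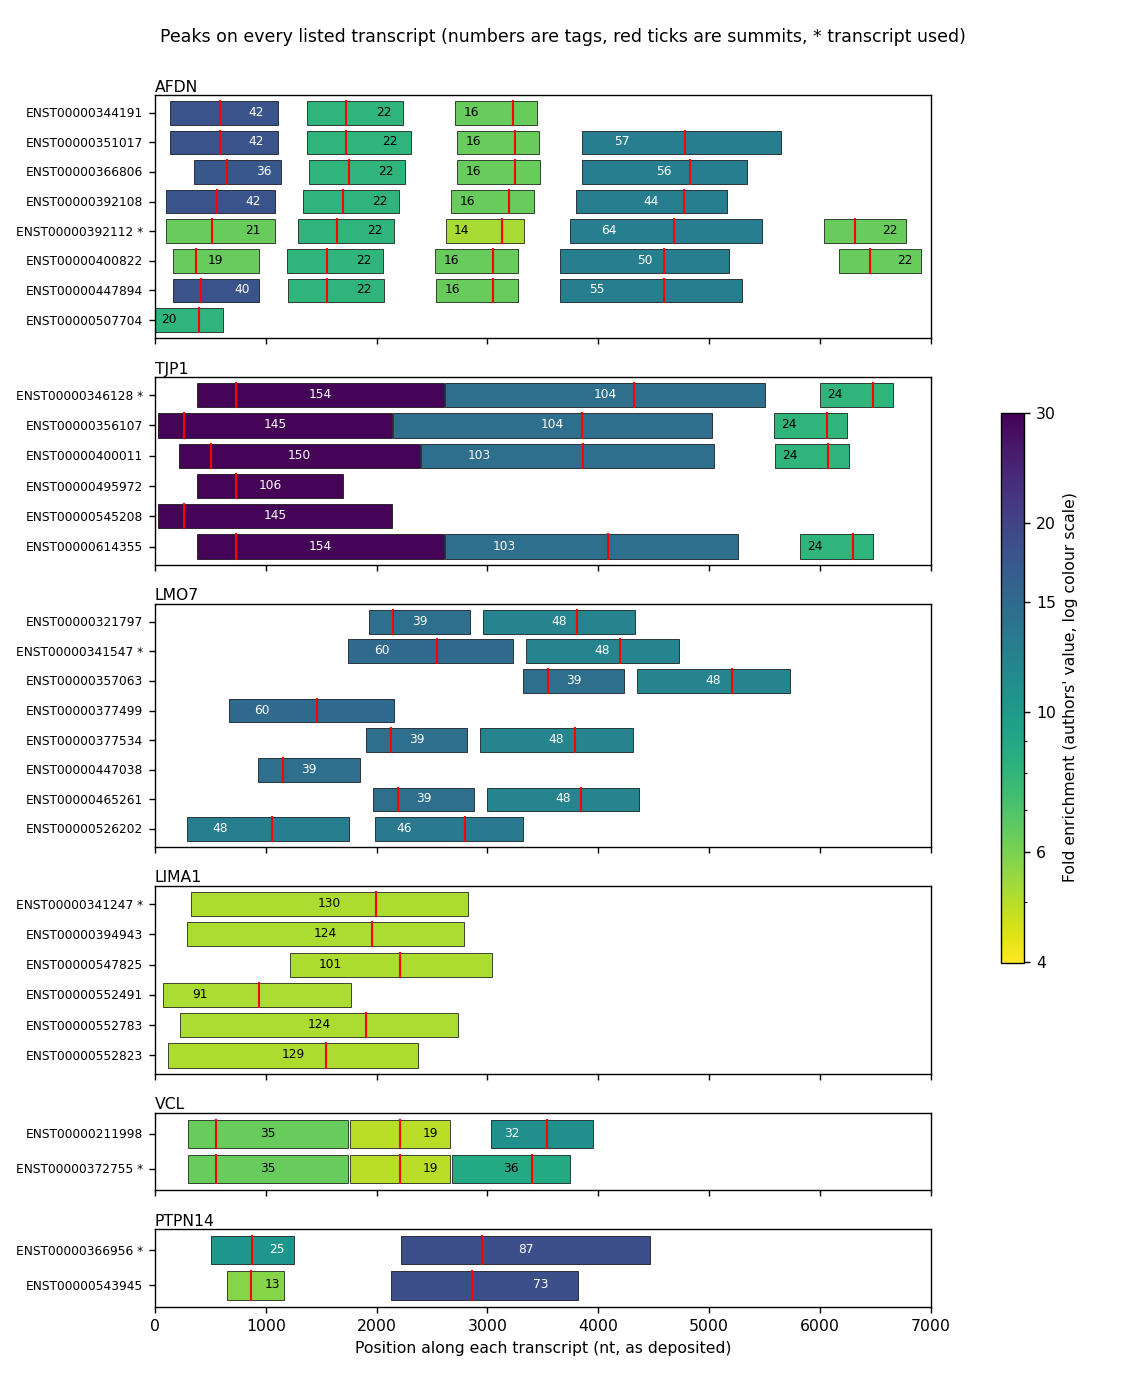
Peaks on every listed transcript of 6 genes (x axis, nt along each transcript as deposited); boxes are coloured by fold enrichment (authors' value), numbers are tags, red ticks are summits, and the asterisk marks the transcript used elsewhere. In AFDN the first peak holds 36 to 42 tags on 5 transcripts but 21 on ENST00000392112 and 19 on ENST00000400822; in LIMA1 the summit keeps its distance from the peak's end.

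AFDN varied most between transcripts, with 17 distinct peaks on 8. The first peak held 36 to 42 tags at folds of 17.36 or 17.94 on 5 transcripts and 21 or 19 tags at 6.37 on ENST00000392112, which has the most tags in total, and ENST00000400822. The remaining transcript, ENST00000507704, had a single peak of 20 tags at 8.10, and which peak of the others it corresponds to is not known. On ENST00000392108 the first peak started at the same nt 103 as on ENST00000392112. The peak was 3 nt longer, with 42 tags against 21. The models also differed after it, since the second peak followed 256 nt later on the former and 211 nt later on the latter. ENST00000447894 and ENST00000400822 repeated this from nt 159, with a length difference of 3 nt, with 40 against 19 tags, and with the second peak 256 nt later on both. In both pairs the longer form had 21 more tags, its summit lay 50 nt further on, and its fold was 17.94 against 6.37. From summit to end, however, the longer form had 521 nt against 568 nt. The 3 nt are thus a net difference between models, not a stretch shown to hold the 21 tags. The reads themselves were not analysed here. The fourth peak, at a fold of 12.73, was present on 6 transcripts with 44 to 64 tags. On ENST00000351017 the second peak had 944 nt and held the same 22 tags as the form of 866 nt found on 6 others.

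In TJP1 the fold of the first peak was 29.52 on all 6 listed transcripts. Its tags ran from 106 to 154 with its length, from 1317 to 2232 nt. The shortest form, on ENST00000495972, ended 915 nt earlier after the same summit and had 80.5 tags per kb. The 915 nt that it lacked went with 48 tags, or 52.5 per kb. ZO-1 is known in forms with and without a stretch called the alpha motif, made by skipping an exon. The second peak came in a form of 2885 nt on 2 transcripts and one of 2645 nt on another 2, with its summit at the same distance from the end. The longer form had 240 nt more before the summit and 1 tag more, 104 against 103. That difference is 4.17 tags per kb, whereas the whole peak had 36.0. It is a net difference between models, not a count of tags inside those 240 nt, and whether they are the alpha exon was not tested.

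VCL is also known in a longer form, metavinculin, that carries an additional exon. Its 2 listed transcripts shared the first and second peak exactly and differed by 204 nt at the end of the third. On ENST00000372755 the third peak began 19 nt after the second and held 36 tags at a fold of 8.85. On ENST00000211998, the longer model, it began 370 nt after the second and held 32 tags at 10.99. The longer model thus had 4 tags fewer, a later start of the third peak and a higher fold in it.

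LIMA1 had 6 listed transcripts with 91 to 130 tags and peaks of 1701 to 2503 nt, yet the fold stayed between 5.13 and 5.18. The summit lay 828 nt before the end of the peak in all 6, so the differences in length lay before the summit as deposited. The form on ENST00000547825 was 679 nt shorter than that on ENST00000341247 and had 29 tags fewer, 42.7 per kb, against 52.0 in the whole peak. Tags did not follow length in every form. The form of 2254 nt held 129 tags, that of 2500 nt 130 and that of 2503 nt 124.

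In LMO7 as well, the summits kept their distance from the peak's end. The summit of the first peak lay 691 nt before its end on all 8 transcripts. The second peak, of 1375 nt on 5 transcripts and 1339 nt on 1, had its summit 523 nt before its end. The folds did vary: on ENST00000526202 they were 12.73 and 13.18, against 15.05 and 12.08 on the transcript used. The first peak was 913 nt long with 39 tags on 5 transcripts, 1488 nt with 60 tags on 2 and 1458 nt with 48 tags on 1. The 575 nt that separate the extremes went with 21 tags, or 36.5 per kb, against 40.3 in the longer form.

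PTPN14 had 2 listed transcripts. The second peak had its summit 734 nt from its start and a fold of 18.52 on both, with 87 tags in 2255 nt on ENST00000366956 and 73 in 1689 nt on ENST00000543945. The first peak was weaker on the latter, with 13 tags at 5.79 against 25 at 10.42. CTNNA1 had 2 as well, with 179 and 174 tags and folds of 4.29 and 4.21. For it the choice of transcript changed little.

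The region labels of TJP1 ran against the order of its peaks. The first peak of TJP1, at nt 379, was labelled 3' untranslated and coding, and on ENST00000614355 the last peak, at nt 5819 to 6483, was labelled 5' untranslated and coding. On the transcripts used, LIMA1 was labelled 3' untranslated and coding, from nt 325, and PTPN14 3' untranslated for both peaks, from nt 509. The label named both untranslated regions for the LIMA1 peak on ENST00000547825 and the second PTPN14 peak on ENST00000543945. None of these labels could be set against a coding-only peak. TJP1, LIMA1 and PTPN14 are the 3 members that the RefSeq table for GRCh38.p14 places on the minus strand. AFDN, VCL, CTNNA1, IQGAP1 and LMO7 are on the plus strand there, and CTNND1 was not matched in that table. In AFDN and VCL the 5' label preceded, and the 3' labels followed, the coding peaks on all transcripts where both were listed.

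The same split was found over all genes with a known strand. For 102 genes on the plus strand, 228 of 228 comparisons put a peak labelled with an untranslated region on the side of the coding-only peaks that its name implies. For 124 genes on the minus strand 0 of 259 did, and all 259 were reversed. Transcripts of a gene repeat each other here; with 1 transcript per gene, 107 of 107 were in order on the plus strand and 115 of 115 reversed on the minus strand. Another 138 comparisons belonged to 48 genes without a strand in that table and could not be sorted. The first peak of a gene began at a median of nt 466 on the plus strand (680 genes) and 499 on the minus strand (675 genes). Such starts cannot tell from which end positions are counted, because distances to the other end of the transcript were not computed. Peaks labelled 3' untranslated alone made up 13.5% of the peaks of plus-strand genes and 44.1% of those of minus-strand genes. The label 5' untranslated and coding was on 169 plus-strand and 8 minus-strand peaks, and 5' untranslated alone on 8 and 1. With 1 transcript per gene, the minus-strand reversals were therefore mostly of 3' labels. Positions of TJP1, LIMA1 and PTPN14 are therefore given as deposited, and their labels were not used to place them in an untranslated region. From which end the positions of minus-strand genes are counted is not stated in the file.

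**Figure D4:**
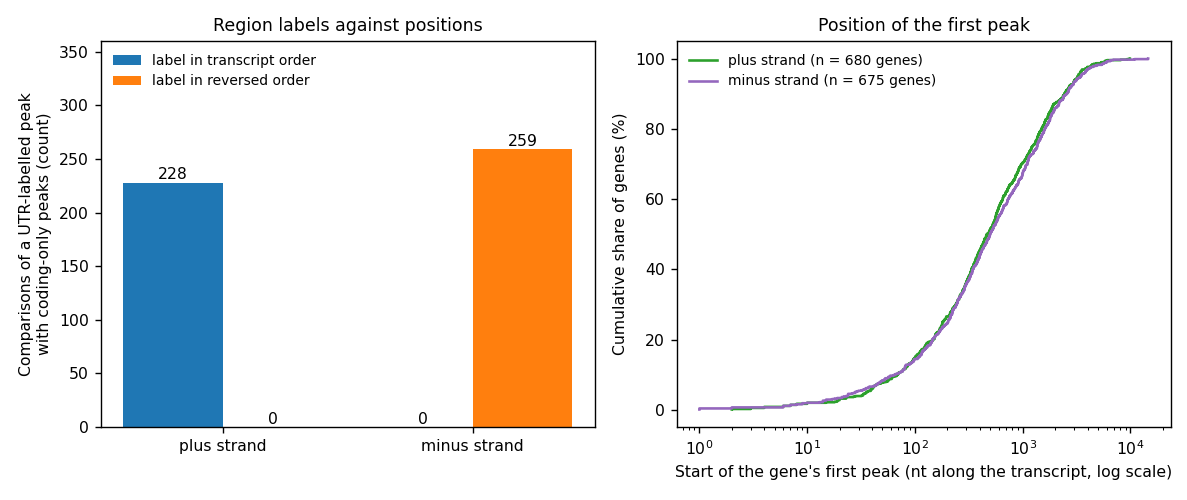
Left, number of comparisons (y axis) in which a peak labelled with an untranslated region lay on the side of coding-only peaks that its label names, or on the other side, by strand of the gene in GRCh38.p14; right, cumulative share of genes (y axis, %) by the start of the first peak (x axis, nt, log scale). All 228 plus-strand comparisons are in order and all 259 minus-strand comparisons are reversed. The start positions have medians of nt 466 and 499, which cannot tell from which end positions are counted.

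In the pathway annotation that the authors joined to the transcripts, 7 of the 9 were in the adherens junction pathway, which held 27 of the 1658 genes. LIMA1 and PTPN14 had no pathway, as had 63.9% of all genes. Leukocyte transendothelial migration held CTNNA1, CTNND1, AFDN and VCL, and the tight junction pathway CTNNA1, TJP1 and AFDN. Since the members were chosen for this function, these counts only describe them.

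Of 120 further genes in 6 lists of junction components, 42 had a peak (35.0%). The lists were chosen with earlier results of these data known, so this share describes them alone. How often genes outside the lists gave a peak was not worked out, so no excess can be read from it or from the counts per list. The median highest fold of the 42 was 8.225 and their median tags 47.5, against 7.56 and 41 over all genes. Of the 42, 15 had a fold of at least 10, beside the 30.3% of all genes. Among catenins and cadherins 3 of 17 had a peak, led by PKP4, an armadillo protein related to p120, at 9.64, and by CTNNB1, the mRNA of beta-catenin, at 8.99. CTNNB1 held 1087 tags per kb, far above the 76.7 of CTNNA1. CDH4, at 8.10 with 16 tags, was the only cadherin gene of the list with a peak.

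Among nectins and junction receptors 4 of 18 had one, led by the receptor kinase genes EGFR at 11.39 and MET at 6.37, with IGF1R at the same fold as MET. None of the listed nectin or JAM genes did. Of the other actin linkers 12 of 23 had one, led by the talin gene TLN1 at 64.25 and the myosin gene MYH9 at 29.19. Of the other signalling regulators 13 of 29 had one, led by CSNK2A2, a catalytic subunit of casein kinase 2, at 13.88 and ARHGAP35, a regulator of small GTPases, at 13.31. YES1, a SRC-family kinase gene, stood at 13.31 too.

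Tight junction genes other than TJP1 had a peak in 7 of 25 cases. PALS1, a polarity scaffold listed under its older symbol MPP5, stood at 10.42 with 26 tags. OCLN, the occludin gene, stood at 4.63 with 13 tags, and none of the listed claudin genes had a peak. Of 8 desmosome genes 3 had one, led by DSP, which encodes desmoplakin, at 15.05 with 215 tags and EVPL at 5.79.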

How the data were processed

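The file gives peaks of the MDA-MB-231 IP library in coordinates of Ensembl transcripts. The tag count of each peak is a whole number deposited by the authors, at least 11. The fold enrichment is the authors' ratio for each peak, per the file headers, and serves only to describe or rank peaks within this list. A column whose name was lost to a spreadsheet is called the score, as deposited by the authors (minimum 30), and only filtered peaks. The submitters' processing notes name the build hg18; aligner, caller, annotation and background library: not given in the sources used here. No genome or transcript sequence of that build was used here, so positions are along transcripts and no sequence is printed.

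The members and lists were chosen with earlier results of these data known. For each symbol the transcript with the most summed tags was used (ties: lowest identifier). Named genes are the 9 members and, per list, the 2 other genes with the highest fold (ties: more tags); genes named beyond these were chosen after their values were seen. The result for 1 gene that this rule selects is not reported here. List names absent from the file were looked up under unambiguous older symbols in the RefSeq table. Strand came from the RefSeq promoter table for GRCh38.p14, and the comparison of labels with strand was added after seeing the data. Intervals are exact Poisson (tags) and Clopper-Pearson (shares) at 95%; they cover counting error only, because no molecular identifiers separate duplicate reads. Python 3.11.15, pandas 2.3.3, numpy 2.4.6 and scipy 1.17.1 were used, and the procedures were tested on simulated data. Alternatives were other choices of transcript and minimums of fold, score and tags.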

Additional observations from a re-analysis of the deposited data

How the results depend on the processing

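With the transcript of the highest fold, 6 members had a fold of at least 10 in place of 5, since VCL then stood at 10.99, and AFDN stood at 17.94. With the transcript of the fewest tags, the members held 1055 tags in 12 peaks in place of 1525 in 20; fewer peaks are counted by construction. The number with a fold of at least 10 was again 5, but AFDN had dropped out at 8.10 and VCL had come in at 10.99. A 4-fold minimum could remove nothing from the members, whose lowest fold was 4.29. A score of at least 50, with the transcript chosen again among the peaks left, gave 16 peaks with 1466 tags and 35 of the 42 other junction genes. On the transcripts used elsewhere it left 15 peaks with 1324 tags, none of them on LIMA1, and 33 genes; this setting was chosen after seeing the data. A minimum of 20 tags left 17 peaks with 1475 tags and 35 genes. Single members gave 176 values under the alternatives other than the 4-fold minimum. Of these, 149 stayed within counting error, or within 1.5 times for folds and counts of peaks. The other 27 moved further, 14 of them with the fewest-tag transcript. LIMA1 is not counted under the score minimum on the transcripts used elsewhere, where it had no peak left. IQGAP1, with 1 peak on 1 listed transcript, kept its values throughout. All settings reuse the same reads, so the 149 are no independent check. CTNND1 was left with its second peak of 28 tags under the score and the tag minimums. No paired analysis was possible because there is only 1 library per group. Depth limits the weaker peaks most: the third peak of AFDN has 14 tags and the first of CTNND1 17.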
